A study of Mus musculus with 11 samples.

Results

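The control J-RGC transcriptome was described from 5 RNA sequencing libraries made from 4 WT mice, out of 11 libraries in the series. The libraries were chosen by the genotype label WT and by nothing measured in them. J-RGCs are a type of retinal ganglion cell, and the series set them beside the same cells of Tbr1 KO mice, whose 6 libraries are not used here. All mice were on a mixed C57BL/6 and CD1 background and were taken at postnatal day 4 to 5. The controls carry, like the rest of the series, a transgene that marks J-RGCs with green fluorescent protein, and the sources used here do not name its promoter. Fluorescent cells were sorted from the retina into pools of 100 cells, and each pool gave 1 library, so every value is an average over a pool and not a single cell. Animal a supplied library 1, animal b supplied both library 2 and library 3, animal c supplied library 4, and animal d supplied library 5. The pair from animal b was summed, which leaves n = 4 animals.

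Retinal ganglion cells are the neurons that carry visual signals along the optic nerve to the brain. They are born early, use glutamate as their transmitter, and fall into many types that differ in dendrite shape, position and the features of the image to which they respond. J-RGCs are a direction-selective type with dendrites that point toward the ventral retina, known for the immunoglobulin adhesion molecule JAM-B, the product of Jam2. At the age studied, ganglion cell axons have reached their brain targets, dendrites are growing, and waves of spontaneous activity driven by acetylcholine cross the retina before vision begins.

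Counts over genes were 24830192 in animal a, 39643629 in b, 34718693 in c and 31618019 in d, and single libraries held between 8609845 (library 3) and 34718693 (library 4). Levels of 1 gene across animals are given as CPM, the gene's reads per 1000000 reads counted over all genes of that animal. Different genes are compared only as TPM, which divides each count by the gene's exon length before scaling to a sum of 1000000. Lists of 4 values stand for animals a, b, c and d in that order, and ± is the SD over n = 4 animals. A gene is called expressed when it reached 1 CPM in all 4 animals. A total of 3 counts, the limit that a count of 0 allows, are worth 0.0757 to 0.121 CPM in 1 animal and 0.0229 CPM over all 4, and since the reads carry no molecular identifiers this covers counting error only. Animal a stood somewhat apart: across 11128 expressed genes, log2 CPM of a correlated with the other animals at Pearson's r = 0.918 to 0.925 (Spearman's rho 0.920 to 0.928), against 0.954 to 0.961 (rho 0.955 to 0.962) among b, c and d. These are correlations across genes, which are not independent replicates. Animal a also had the fewest genes with any count, 13897 against 15277 to 15593 in the other animals. Library 3 had 14241 at its lower depth. Whether this bears on the values in which animal a differs was not tested. The pools of animal b correlated at 0.922, within the range of 0.910 to 0.961 between pools of different animals.

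All 5 marker genes of the sorted cells were well above the expression threshold in every animal. Rbpms, which encodes an RNA-binding protein shared by ganglion cells of all types, stood at 763, 909, 958 and 920.3 CPM. Slc17a6, the vesicular glutamate transporter of ganglion cells, stood at 606, 557, 726 and 718 CPM. Jam2, the gene for JAM-B itself, stood at 451, 447, 579 and 623 CPM. Its values fell into a lower pair in a and b and a higher pair in c and d. Tbr1, a T-box transcription factor that marks a subset of ganglion cell types including J-RGCs, stood at 193, 151, 164 and 166 CPM. Sorcs3, a sorting receptor of the VPS10 family, stood at 145, 121, 151 and 148 CPM. Tbr1 was highest and Jam2 was second lowest in animal a, so these 2 genes did not follow the same order over the animals.

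Per length, the order of the 5 was the same in each animal, with no overlap between neighbours. Rbpms was at 820.2 ± 80 TPM, rank 152 of all genes with a length. Slc17a6 followed at 410.3 ± 59.2 TPM, rank 440, and Jam2 at 226 ± 41.8 TPM, rank 907. Tbr1 was at 107 ± 12.7 TPM, rank 1991, and Sorcs3 at 65.3 ± 7.52 TPM, rank 2952. The 3 genes that name the type were therefore less abundant than the pan-ganglion pair, and all 3 lay above the median expressed gene, which was at 24.9 TPM. Jam2 and Tbr1 also lay above the upper quartile of expressed genes, 71 TPM, and Sorcs3 just below it. In a bulk pool, fewer cells of a type and less RNA per cell cannot be told apart, and this holds for every level below.

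**Figure D1:**
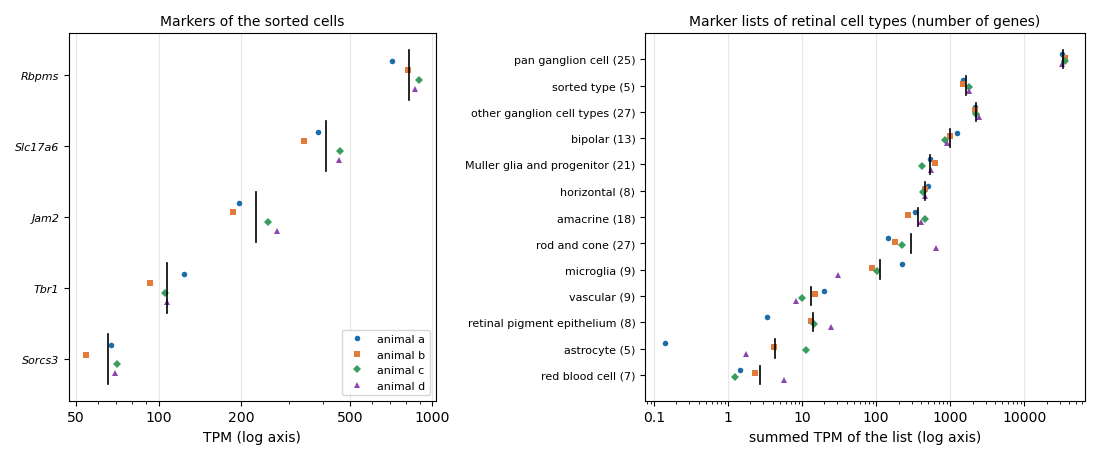
Left, TPM (log axis) of the 5 markers of the sorted cells in each of the 4 control animals. Right, summed TPM (log axis) of 13 marker lists of retinal cell types, with the number of genes in each list; points are animals and vertical bars are means. The 5 markers keep 1 order in every animal, the pan ganglion cell list sums to 32009.6 TPM or more in each, and the lists of astrocytes and red blood cells stay under 12 TPM.

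The sequences just upstream of 5 genes that define or stand out in these cells show how different their promoters are in base composition. Each is the stretch of 250 bases that ends before the RefSeq start of the gene on GRCm38.p6, printed 5′ to 3′ on the gene's own strand, with any match to the searched motifs in capitals. The windows are chr2:61804203-61804452 (plus strand), chr19:48205775-48206024 (plus), chr14:104468000-104468249 (minus), chr13:116309689-116309938 (minus) and chr1:53061390-53061639 (plus), in the order printed. The RefSeq start of Tbr1 lies inside the span that GENCODE gives the gene (GRCm38 chromosome 2, 61802930 to 61814114, plus strand), while that of Sorcs3 is the GENCODE start (GRCm38 chromosome 19, 48206025 to 48805505, plus strand).
Tbr1: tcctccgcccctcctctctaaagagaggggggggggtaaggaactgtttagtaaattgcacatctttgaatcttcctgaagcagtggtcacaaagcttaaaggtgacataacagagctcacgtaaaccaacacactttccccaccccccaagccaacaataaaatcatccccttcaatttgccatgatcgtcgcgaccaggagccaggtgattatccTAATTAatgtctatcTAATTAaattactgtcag
Sorcs3: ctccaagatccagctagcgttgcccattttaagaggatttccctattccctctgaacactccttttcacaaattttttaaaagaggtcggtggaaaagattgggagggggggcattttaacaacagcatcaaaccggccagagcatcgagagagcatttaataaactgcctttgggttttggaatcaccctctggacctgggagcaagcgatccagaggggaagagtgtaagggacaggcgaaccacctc
Pou4f1: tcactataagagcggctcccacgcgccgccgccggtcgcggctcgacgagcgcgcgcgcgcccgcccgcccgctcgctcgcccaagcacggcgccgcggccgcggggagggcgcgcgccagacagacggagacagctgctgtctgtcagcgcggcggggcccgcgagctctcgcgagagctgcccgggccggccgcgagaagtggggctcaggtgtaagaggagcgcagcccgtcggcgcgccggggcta
Isl1: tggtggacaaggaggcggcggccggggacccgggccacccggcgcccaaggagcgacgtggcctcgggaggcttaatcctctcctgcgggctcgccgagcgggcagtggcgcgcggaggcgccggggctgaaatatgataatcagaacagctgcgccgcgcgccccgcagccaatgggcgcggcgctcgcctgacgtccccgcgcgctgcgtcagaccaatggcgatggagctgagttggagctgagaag
Mstn: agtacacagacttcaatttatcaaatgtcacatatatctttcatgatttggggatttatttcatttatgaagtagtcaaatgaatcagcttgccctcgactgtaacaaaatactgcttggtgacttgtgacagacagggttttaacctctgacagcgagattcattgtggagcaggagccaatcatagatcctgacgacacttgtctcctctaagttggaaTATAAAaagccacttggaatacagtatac

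The windows of Tbr1 and Sorcs3 were poor in G and C, at 45.2% and 48.4%, with 5 and 6 CpG pairs. Those of Pou4f1 and Isl1, the highest ganglion cell transcription factors, held 78% and 71.2% with 47 and 33 CpG pairs. Mstn, the myostatin gene described below, had 38.4%. Among genes of the files with a window in the RefSeq table, the median was 60.4% G and C with 17 CpG pairs for 8532 expressed genes, and 49.6% with 3 for 8692 others, so the Tbr1, Sorcs3 and Mstn windows lay below the median of both groups in G and C. Motifs were searched on both strands. The first was the homeodomain core TAATTA, which reads alike on both strands. The T-box core was searched as TCACACC on either strand. The TATA box was searched as TATAAA, again on either strand. The Tbr1 window held TAATTA at 2 places, starting at -33 and -18, and the Mstn window held TATAAA at -29. Of all 32851 windows in the table, 4.84% held TAATTA, 3.33% the T-box core and 12.4% the TATA box. TATAAA was found in 5.49% of windows of expressed genes and in 18.2% of the others. For TAATTA these shares were 2.14% and 6.49%, and for the T-box core 2.74% and 3.67%. A match is a description of the letters and not a measured binding site.

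Of 24421 genes in the files, 11128 were expressed, which is 45.6%. Of protein-coding genes 10739 of 20502 (52.4%) were expressed, of long non-coding genes 265 of 1839 (14.4%) and of pseudogenes 49 of 354 (13.8%). Protein-coding genes took 95.3% ± 0.394 of the counts (SD, n = 4). The expressed set thinned out with level, with 7900 genes at 10 CPM or more in all animals, 1814 at 100 and 66 at 1000. Among 11061 expressed genes with a length, the lower quartile was 9.30 TPM, the upper quartile 71 TPM and the 95th percentile 337 TPM. The 10 highest genes by CPM took 7.39% ± 0.489 of the counts, the 100 highest 22.2% ± 0.950 and the 1000 highest 54.3% ± 0.671.

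The most abundant transcripts were those of the axonal cytoskeleton, calcium sensing and membrane release. Tuba1a, an alpha-tubulin of growing neurons, led at 9655, 14717, 14625 and 12042 TPM. It was above the next gene, Calm2, in 4 of 4 animals. Calm2, which encodes the calcium sensor calmodulin, was at 6692 ± 670.5 TPM, and Actg1, a cytoplasmic actin, at 6070.2 ± 1271 TPM. Ranks 2 to 5 lay close together: Calm2 was above Actg1 in 3 of 4 animals, Actg1 above Sncg in 2 of 4 animals, and Sncg above Hspa8 in 2 of 4 animals. Sncg, the gene for gamma-synuclein and a marker of ganglion cells, was at 5788, 7261, 5458 and 5513 TPM, highest in b. Hspa8, a constitutive heat shock chaperone, was at 5898 ± 525 TPM.

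A further 3 tubulins were among the 25 highest genes, Tubb2a (5685 ± 890.4 TPM), the neuronal beta-tubulin Tubb3 (4616 ± 683 TPM) and Tubb5 (2928 ± 203 TPM). Reads that align to several places were not counted, 13.6% to 14.6% of those listed in each library, so levels of closely similar tubulins are uncertain. Growth cone genes were also among the 25 highest. Gap43, a membrane protein of growing axons, stood at 6619, 5673, 4539 and 4545 TPM, higher in a and b than in c and d. Crmp1, a tubulin-binding protein that acts in axon guidance, was at 3095 ± 78.9 TPM, and the microtubule regulator Stmn1 at 2889 ± 269 TPM. Marcksl1, an actin-linked protein of growth cones, was at 2589 ± 366 TPM. Nefl, the light neurofilament chain, was at 3029, 3899, 4448 and 3979.6 TPM, lowest in a.

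Genes of general cell function filled most of the other places. Ftl1, the ferritin light chain that stores iron, was at 4323 ± 524 TPM, Slc25a4, the mitochondrial ADP/ATP carrier, at 3124 ± 127 TPM, and Cox4i1, a subunit of cytochrome c oxidase, at 3059 ± 581 TPM. Tecr, an enzyme of long fatty acid synthesis, was at 4224 ± 369 TPM. Gnb1, the beta subunit of heterotrimeric G proteins, varied most of the 25, at 1264, 4405, 3278 and 5300.4 TPM. Animal a lay far below the other 3 for Gnb1, and its level in the other animals also spread widely. Cpe, a carboxypeptidase that trims peptide hormones and neuropeptides, was at 4111 ± 227 TPM. The other names in the 25 were Ywhah (5381), Tmsb10 (3829.9), Snap25 (2979), Hn1 (2914), the long non-coding RNA Malat1 (2833) and Tmem181b-ps (3878), all in TPM.

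Of these 25 genes, 20 were among the 25 highest in every single animal, 17 were also among the 25 highest by CPM and 23 when the longest transcript was used as the length. Tmsb10 and Snap25 depend on that choice, with 7212 and 1388 TPM on the longest transcript. Tmem181b-ps is annotated as a pseudogene, and reads of its parent gene may be counted to it. The 45S ribosomal precursor Rn45s, which has no length in the annotation used, took 1.41% to 2.33% of the counts in an animal.

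**Figure D2:**
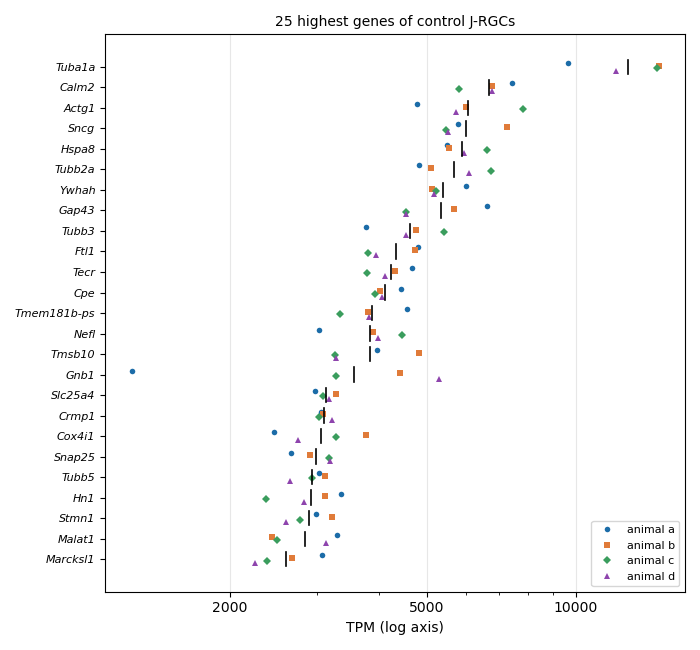
TPM (log axis) of the 25 genes with the highest mean in control J-RGCs, 1 row per gene; points are the 4 animals and vertical bars are means. Tuba1a lies above Calm2 in every animal, most neighbours overlap, and Gnb1 has the widest spread with animal a lowest.

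Every one of 25 pan ganglion cell markers was expressed, against 45.6% of all genes, and the list summed to 32192, 35279, 34802 and 32009.6 TPM. Most of this sum came from cytoskeletal and synaptic genes that many neurons use. Beyond those named above, Rbpms2, a close relative of Rbpms, was at 1088, 1212, 1207 and 1089 CPM, Thy1, a surface glycoprotein of ganglion cells, at 435, 385, 454 and 385 CPM, and Uchl1, a ubiquitin hydrolase of neurons, at 734, 939.7, 1004 and 771 CPM. The heavier neurofilament chains were less abundant than Nefl. Nefm was at 391 ± 92.8 TPM and Nefh at 10.2 ± 4.38 TPM, against 3839 ± 592 TPM for Nefl. The ratio of Nefl to Nefm was 10.9, 10.2, 8.84 and 9.89, and that of Nefl to Nefh ran from 308 to 674, with its highest value in animal a. On the longest transcript Nefm was at 626 TPM, which lowers the first ratio.

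Of markers of other ganglion cell types, 13 of 27 (48.1%) were expressed, between the 45.6% of all genes and the 52.4% of protein-coding genes. Calb2, which encodes the calcium buffer calretinin, accounted for most of the list, at 1177, 1286, 1212 and 1364 CPM, rank 45 by TPM. Serpine2, a secreted protease inhibitor, was at 124, 119, 111 and 114 CPM, and Fstl4, a secreted follistatin-like protein, at 128, 146, 202 and 135 CPM. Fam19a4 was at 49.8, 49.9, 49.5 and 66.1 CPM. Opn4, the melanopsin gene, was expressed, at 3.62, 5.60, 4.15 and 4.21 CPM. Eomes, a T-box factor of melanopsin cells, was not, at 0.0403, 0, 0.0864 and 1.39 CPM, nor was Foxp2, at 1.49, 0.0252, 0 and 0.0633 CPM. Cartpt, a peptide of ON-OFF direction-selective cells, was at 4.43, 0.858, 0.173 and 0.348 CPM, over 1 CPM in animal a alone. Kcng4, Pvalb, Hoxd10 and Trhr had 0 counts in all 4 animals, which allows up to 0.0229 CPM over the animals.

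Marker genes of other retinal cells were read in the same pools. The share of a list expressed was above the 45.6% of all genes for microglia (55.6%), Müller glia and progenitors (52.4%) and horizontal cells (50%). It was below this share for photoreceptors (40.7%), amacrine (33.3%), bipolar (30.8%), vascular (22.2%) and pigment epithelium (12.5%) lists. Against the 52.4% of protein-coding genes, the microglial list was higher, the Müller list the same and the horizontal list lower. For photoreceptors, 11 of 27 markers were expressed and the list summed to 145, 177, 226 and 634 TPM. Animal d was highest, and without it the mean sum went from 295 to 183 TPM. Nr2e3, a rod nuclear receptor, was at 11.4, 9.76, 9.10 and 55.9 CPM. Pde6h, Arr3 and Opn1mw had 0 counts in all animals. For microglia, 5 of 9 were expressed and the sum was 224, 87.3, 104 and 30.8 TPM, highest in a, where the complement gene C1qc was at 37.7, 10.5, 7.72 and 0.854 CPM and Cx3cr1, the fractalkine receptor, at 22.2, 4.92, 5.04 and 5.76 CPM. Without a the mean microglial sum was 74.1 TPM in place of 112. For Müller glia and progenitors, 11 of 21 were expressed with a sum of 536, 616, 414 and 552 TPM. The leading members were Dkk3, Clu and Apoe, while the glial water channel Aqp4 was at 0, 2.83, 0 and 0 CPM and Sox2 at 0.0805, 0, 0 and 0.506 CPM.

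For amacrine cells, 6 of 18 were expressed with a sum of 329.6, 265, 455 and 405 TPM, and their member Pax6 is known to be active in ganglion cells too. Gad1, the enzyme that makes GABA, was at 1.93, 0.404, 0.691 and 1.17 CPM and the vesicular GABA transporter Slc32a1 at 0, 0.0252, 0.864 and 0.127 CPM. For bipolar cells, 4 of 13 were expressed with a sum of 1231, 995, 852 and 891 TPM. Nearly all of this was Isl1, which is also in the pan ganglion cell list, and Vsx1 was at 0. For horizontal cells, 4 of 8 were expressed with a sum of 493, 457, 426 and 450.2 TPM. Most of this was Tpm3, a tropomyosin gene, at 361, 329.8, 272 and 288 TPM. The others expressed were Slc4a3, an anion exchanger, at 74.7 ± 11.7 TPM, Sept4 at 58.5 ± 15.4 TPM and the calcium buffer Calb1 at 9.23 ± 4.14 TPM. The transcription factor genes of the list, Lhx1, Onecut1, Onecut2 and Prox1, were not expressed, and Lhx1 was at 0. None of 5 astrocyte markers was expressed, with sums of 0.142, 4.14, 11.4 and 1.76 TPM, and a mean of 2.01 TPM without c in place of 4.35. Of vascular markers 2 of 9 were expressed, with sums of 19.5, 15, 9.90 and 8.29 TPM and with Cdh5, Pdgfrb and Cspg4 at 0. Of pigment epithelium markers 1 of 8 was expressed, with sums of 3.36, 13.1, 14.6 and 24.7 TPM. All 6 globin genes had 0 counts, but they have near-identical copies and reads that align to several places were not counted. The part of these cells in any level below was not tested.

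Of 446 transcription factor genes in 18 families, 158 (35.4%) were expressed, fewer than the 45.6% of all genes, and 125 had no count in any animal. Isl1, a LIM-homeodomain factor that acts with POU factors in ganglion cell differentiation, led at 1188, 950.1, 815 and 817 TPM. Animal a was highest for Isl1. Pou4f1, the gene for Brn3a, was next at 759, 637, 523 and 706 TPM. Pou4f2, the gene for Brn3b, was at 233, 202, 239.6 and 235 TPM. The ratio of Pou4f1 to Pou4f2 was 3.26, 3.15, 2.18 and 3.0, so Pou4f1 was higher in every animal. Pou4f3 was low, at 7.23 ± 4.88 TPM. Isl2, a relative of Isl1 found in a subset of ganglion cells, was at 13.8 ± 5.20 TPM, and Isl1 and Isl2 were the expressed members among 12 LIM-homeodomain genes.

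Homeodomain genes of other families followed. Irx6, an Iroquois factor, was at 302, 294, 327 and 337 TPM, and Irx5 at 102 ± 23.9 TPM, while Irx3 was at 6.60 TPM and the other 3 Iroquois genes were not expressed. Barhl2, which acts in ganglion and amacrine subtypes, was at 264 ± 20 TPM, and was above Pou4f2 in 4 of 4 animals. Pax6 was at 87.6 ± 3.73 TPM (139 TPM on its longest transcript). Of 102 genes grouped as other homeodomain, 19 were expressed.

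Tbr1 was the highest T-box gene at 107 ± 12.7 TPM, above Tbx2 (20.6 ± 4.79 TPM) and Mga (4.29 ± 1.34 TPM) in all 4 animals, and the remaining 13 of 16 T-box genes were not expressed. Within the whole transcription factor category Tbr1 sat among a group of similar level. It was above Irx5 in 2 of 4 animals, below Jund in 2 of 4 animals and below Atf4 in 3 of 4 animals. Nuclear receptors made a larger group, with 20 of 45 expressed. Thra, the thyroid hormone receptor alpha gene, was at 174 ± 11.8 TPM, Rxrg, a retinoid X receptor, at 126, 171, 186 and 185 TPM, and Nr1d1, a repressor of the circadian clock, at 159.9 ± 31.6 TPM. Rxrg was lowest in a. Thra and Nr1d1 overlap on opposite strands, and the reads do not mark the strand, so their levels are not independent. Rora was at 101 ± 9.79 TPM and Rorb at 86.4 ± 20.2 TPM.

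Factors of neuronal differentiation included Hes6 (154 ± 19 TPM), an inhibitor of Hes1 action, Myt1l (148 ± 5.03 TPM), a zinc finger factor that maintains neuronal identity, and Ebf1 (52 ± 9.04 TPM). The SOXC genes Sox4 (60.3 ± 10.1 TPM), Sox11 (28.2 ± 6.32 TPM) and Sox12 (13.6 ± 9.87 TPM, highest in a) and 1 other member were the 4 expressed of 20 SOX genes. Of the TALE group, partners of other homeodomain proteins, 8 of 11 were expressed, led by Meis3 (134 ± 25.6 TPM) and Pbx3 (95.7 ± 27.6 TPM). Klf13 (127, 74.7, 44.3 and 53.3 TPM), a zinc finger factor, was highest in a, and Klf6 and Klf7 were at 61.2 and 41.5 TPM. Activity-linked factors were present at moderate levels, with Jund (109 ± 7.68 TPM), Jun (50.9, 76.2, 88.6 and 106 TPM) and Fos (37.2 ± 12 TPM). Jun was lowest in a and highest in d. Crx, Otx2, Nr2e3 and Neurod1, which are known from photoreceptors, were expressed at 14.8, 19.4, 27.7 and 15.2 TPM. Crx, Otx2 and Nr2e3 were highest in animal d, as was the summed photoreceptor list.

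**Figure D3:**
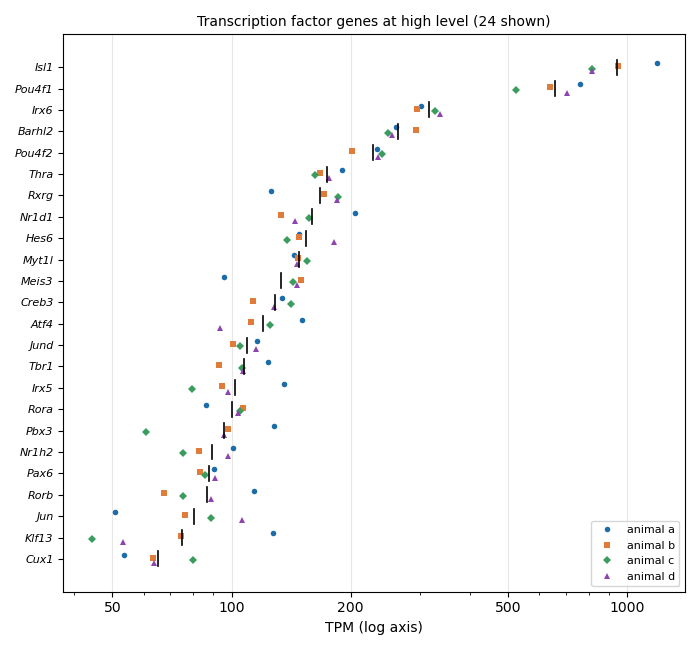
TPM (log axis) of 24 transcription factor genes at high level in control J-RGCs; points are the 4 animals and vertical bars are means. Isl1 and Pou4f1 lead in mean level, and Tbr1 lies in a cluster of genes near 100 TPM whose animals overlap.

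Of 279 receptor genes, 114 (40.9%) were expressed, below the 45.6% of all genes and the 52.4% of protein-coding genes. Nicotinic acetylcholine receptor subunits were the highest receptors, and 7 of 16 were expressed, summing to 1025 ± 163 TPM. Chrna6, the alpha6 subunit, was at 323, 373, 441 and 420.4 TPM, and Chrnb3, the accessory beta3 subunit, at 336, 269, 449 and 398 TPM. Neither was above the other in all animals, since Chrna6 was higher in 2 of 4 animals. On the longest transcript Chrnb3 was the higher in all 4 animals, with means of 513 TPM for Chrnb3 and 396 TPM for Chrna6. Chrna3 followed at 132 ± 21.6 TPM, with Chrna6 2.97 ± 0.341 times as high. Chrna4 was at 53.9, 51.5, 91 and 57.2 TPM, highest in c, and Chrnb2, the beta2 subunit needed for the early retinal waves, at 41.7, 67.8, 69.6 and 63 TPM. Chrnb2 shares 1365 bases of exon with Adar on the opposite strand, so its level is uncertain. Chrnb4 was at 12.3 ± 6.97 TPM, and Chrnb2 was above it in every animal. None of the 5 muscarinic receptor genes was expressed.

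Ionotropic glutamate receptors, the receivers of bipolar cell input, were lower. Among AMPA subunits Gria2, which limits calcium entry, led at 72.6, 48.3, 72.5 and 56 TPM, ahead of Gria4 (46.6 ± 2.43 TPM) and Gria1 (26.6 ± 4.57 TPM). Gria2 was above Gria4 in 4 of 4 animals, and the ratio of Gria2 to Gria1 was steady at 2.34 ± 0.113. All 5 kainate subunits were expressed, with Grik5 highest at 32 ± 14.3 TPM. Grin1, the obligatory NMDA subunit, was at 60.3 ± 11.6 TPM and overlaps Grin1os on the opposite strand. Grin2b was at 5.52 ± 1.93 TPM and Grin3a at 6.53 ± 3.40 TPM, and the other 4 NMDA genes were not expressed. Of metabotropic glutamate receptors 6 of 8 were expressed, led by Grm7 (44.4 ± 7.58 TPM) and Grm3 (32.5 ± 11.2 TPM).

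Receptors for the inhibitory transmitters GABA and glycine were of similar level to those for glutamate. Of GABA-A subunits 9 of 19 were expressed, and Gabra2, an alpha subunit, was at 43.4 ± 9.01 TPM. Gabbr1, part of the metabotropic GABA-B receptor, was at 102 ± 16.9 TPM, and 2.77 ± 0.543 times its partner Gabbr2. For glycine, Glrb, the beta subunit, was at 54.1, 59.1, 119.7 and 118 TPM and Glra2, the alpha2 subunit of immature neurons, at 60.1, 50.6, 91.7 and 106 TPM. For both genes animals c and d lay above a and b. Glra1, the alpha1 subunit of mature synapses, was at 0, 1.03, 0.0288 and 4.46 CPM.

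Other transmitter receptors were few. Oprl1, the nociceptin receptor, was at 62.8, 58.6, 59.9 and 55.7 TPM, with a narrow range, and Adora1, the A1 adenosine receptor, at 53.8 ± 10.8 TPM. The ATP-gated channels P2rx3 (45.9 ± 11.7 TPM) and P2rx2 (31.4 ± 5.43 TPM) were the next purine receptors, and 4 of 19 in that family were expressed. Of 36 neuropeptide receptor genes 6 were expressed, with Vipr2, a receptor for the peptide VIP, at 40 ± 5.75 TPM and Crhr1, for corticotropin-releasing hormone, at 34.4 ± 3.33 TPM. Of 32 monoamine receptor genes 7 were expressed, none above 11.8 TPM (Htr1d, a serotonin receptor).

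Growth factor and guidance receptors completed the category. Gfra4, a co-receptor of the GDNF family, was at 38.2, 117, 105 and 123 TPM, with animal a below the others, and Ret, the signalling partner of this family, at 17.9 ± 3.20 TPM. Ntrk2, the BDNF receptor gene, was at 17.2 ± 0.663 TPM and Ntrk3 at 7.33 ± 1.60 TPM, while Kit, a receptor tyrosine kinase, was at 48.5, 50.1, 51.4 and 26.1 CPM, lowest in d. Among guidance receptors the neuropilin Nrp1, a semaphorin co-receptor, was at 84, 47.2, 50.6 and 59.4 TPM, and 8 of 11 plexins and neuropilins were expressed. Of Eph receptors, which read ephrins in the maps of the visual system, 9 of 14 were expressed, led by Epha5 (49.3 ± 5.15 TPM). Robo2, a Slit receptor, was at 33.5 ± 4.87 TPM, and Neo1, a relative of Dcc, at 19.8 ± 4.89 TPM, both highest in a, and Dcc, the netrin receptor, at 7.92 ± 1.35 TPM. All 5 VPS10 receptors were expressed, and Sorcs3 was the highest of them, above Sort1 (31.3 ± 8.21 TPM) in every animal.

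Of 210 ion channel genes, 110 (52.4%) were expressed, against 45.6% of all genes and 52.4% of protein-coding genes. The 2 highest encode auxiliary subunits of calcium channels and not pores. Cacnb3, the beta3 subunit of voltage-gated calcium channels, led at 715, 597, 641 and 777 TPM, 8.98 ± 2.12 times as high as Cacnb1. Cacng5, a gamma subunit that also attends AMPA receptors, was at 249, 219, 378 and 321 TPM. Of calcium alpha1 pores 8 of 10 were expressed, and the highest was Cacna1b, the N-type pore, at 27.4 ± 2.48 TPM. Of the alpha2-delta subunits Cacna2d2 was at 38.4 ± 9.88 TPM and Cacna2d1 at 17.5 ± 2.62 TPM.

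Sodium channels showed the same order. The beta subunits Scn3b (124, 114, 177 and 157 TPM) and Scn2b (116, 79.1, 83 and 119 TPM) lay above the pores Scn9a (38.6 ± 7.33 TPM), Scn3a (32.9 ± 3.48 TPM), Scn1a (29 ± 4.18 TPM) and Scn8a (19.1 ± 3.91 TPM). Scn3b was above Scn2b in all 4 animals, with a ratio of 1.07 to 2.13. Fgf12 and Fgf13, which act inside the cell on sodium channels, were at 328 ± 40.5 TPM and 86.1 ± 8.97 TPM.

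Among potassium channel genes the accessory subunits Kcnip1 (129.6 ± 19 TPM) and Dpp6 (69.9 ± 7.46 TPM) were highest, and Kcnip1 stood at 79.9 TPM on its longest transcript, below Dpp6 (97.5 TPM) in all 4 animals. The pores of fast-spiking cells, Kcnc4 (62.1 ± 14.1 TPM), Kcnc2 (45.3 ± 7.16 TPM) and Kcnc1 (33.5 ± 4.89 TPM), led the 23 expressed of 35 Kv pores. Kcnn1, a calcium-activated channel of small conductance, was at 52.8 ± 12.7 TPM. Of 15 inward rectifiers 4 were expressed, none above 11.4 TPM (Kcnj9). All 4 HCN pacemaker channel genes were expressed, with Hcn3 at 65.6 ± 14.1 TPM, and Hcn3 overlaps Pklr on the opposite strand.

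Gjd2, the gene for the main connexin of neuronal gap junctions, was at 62.6, 127, 137 and 124 TPM, lowest in a, and 6 of 23 gap junction and pannexin genes were expressed. The pannexin Panx1 was at 62.3 ± 13.6 TPM. Mcoln1, a TRP channel of lysosomes, was the third channel gene at 174 ± 13.2 TPM. On the longest transcript its mean was 127 TPM, below the 158 TPM of Scn3b. Clcn7, a lysosomal chloride exchanger, was at 71.7 ± 13.2 TPM.

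**Figure D4:**
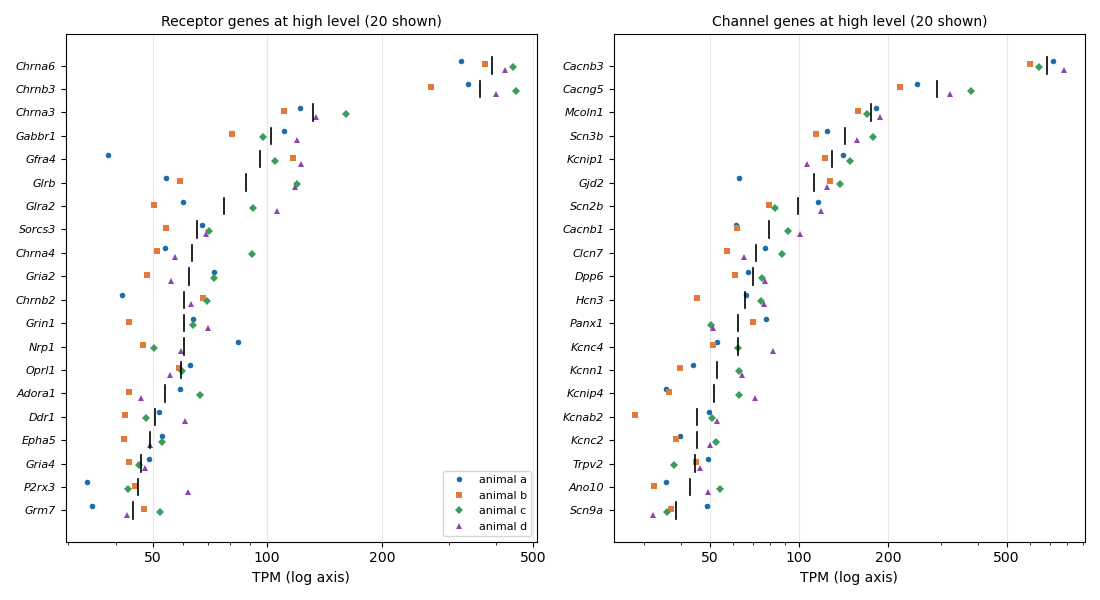
TPM (log axis) of 20 receptor genes (left) and 20 ion channel genes (right) at high level in control J-RGCs; points are the 4 animals and vertical bars are means. Chrna6 and Chrnb3 lie well above the other receptors shown, and Cacnb3 above the other channel genes shown, in every animal, while most genes under 100 TPM overlap their neighbours.

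Of 218 adhesion genes, 151 (69.3%) were expressed, a larger share than the 45.6% of all genes. Ncam1, the neural cell adhesion molecule, led at 927, 814, 699.6 and 832 TPM, followed by Ntm, the IgLON protein neurotrimin, at 381, 362, 399 and 376 TPM. Ntm varied little over the animals. L1cam, an adhesion molecule of axons, was at 305, 185, 262 and 255 TPM, and Ncam1 was 3.34 ± 0.745 times as high. Jam2 had the next mean and was first of its own family, at 196, 187, 252 and 272 TPM. Its relative Jam3 was at 9.21 ± 1.53 TPM, F11r, the gene for JAM-A, at 11.8 ± 7.37 TPM, and Cxadr, which is related in structure, at 43.7 ± 6.15 TPM, highest in c. Jam2 was 24.8 ± 4.11 times as high as Jam3. Jam2 was above L1cam in 2 of 4 animals, but in 3 of 4 on the longest transcript, where its mean of 319 TPM was above the 264 TPM of L1cam. It was above Cadm3 in 4 of 4 animals.

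The CADM and nectin family had 6 of 8 members expressed, with Cadm3 (193 ± 22.7 TPM), Cadm1 (163 ± 18.6 TPM), Pvrl2 (155 ± 23.3 TPM) and Cadm4 (129.9 ± 24.9 TPM) at similar levels. Of classical and type II cadherins 11 of 23 were expressed. Cdh4, the R-cadherin gene, was at 138, 119.7, 130.0 and 135 TPM, Cdh13, which lacks a transmembrane domain, at 81.2 ± 12.7 TPM, and Cdh8 at 44.1 ± 7.32 TPM. The neurexins and neuroligins, which join across synapses, were all expressed, and Nlgn3 was the highest at 127 ± 32.2 TPM. Of leucine-rich repeat proteins 29 of 35 were expressed, led by Lingo1 (121 ± 20.7 TPM), Islr2 (171, 106, 93 and 113 TPM) and Lrrn3 (65.4, 73.5, 119 and 127 TPM). Islr2 was highest in a, while Lrrn3 was lower in a and b than in c and d.

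All 6 contactins were expressed, with Cntn1 at 103 ± 17.4 TPM and the others between 2.84 TPM (Cntn3) and 31.3 TPM (Cntn6). Of non-clustered protocadherins 10 of 12 were expressed, led by Pcdh8 (49.3 ± 15.8 TPM). Of 58 clustered protocadherins 46 were expressed, at low levels for most, with Pcdhb9 (63.9 ± 11.6 TPM), Pcdhb7 (54.3 ± 20.8 TPM) and Pcdhac2 (53 ± 5.12 TPM) highest. These genes are similar in sequence and share exons, so their counts are uncertain. Teneurins and latrophilins, partners in target recognition, had 6 of 8 expressed, with Tenm3 at 43.7 ± 6.88 TPM. Integrins were mostly below the threshold, 7 of 26 being expressed, with Itgb1, the common beta subunit, at 67.2 ± 19.6 TPM.

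Of 250 genes for secreted proteins and guidance ligands, 96 (38.4%) were expressed, below the share of all genes. The dense-core vesicle pathway stood out within them, with all 11 granins and prohormone-processing genes expressed and a sum of 6799 ± 383 TPM. Cpe was followed by Scg5, a chaperone of a prohormone convertase, at 1327, 1263, 1220.5 and 734 TPM, lowest in d. Scg3, a granin-like sorting protein, was at 352 ± 40.3 TPM, highest in a, Pcsk1n, a convertase inhibitor, at 299 ± 34.7 TPM, and Pam, which amidates peptides, at 287 ± 43.8 TPM. The granins Chga (128, 123, 201 and 273 TPM) and Chgb (177 ± 17.6 TPM) were lower, and Chga was higher in c and d than in a and b. In contrast to this machinery, 4 of 33 neuropeptide genes were expressed. Gal, the galanin gene, was the highest of them at 132, 115, 75.8 and 88.6 TPM, and the next, Adcyap1, was at 9.63 ± 1.40 TPM.

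Mstn, which encodes myostatin, a TGF-beta family protein known as a brake on muscle growth, was at 205, 215, 229.9 and 271 CPM. Per length it was at 221 ± 30.5 TPM, rank 931, and the highest of 31 BMP, TGF-beta and activin ligand genes. Inha, the inhibin alpha gene, was at 72 ± 8.12 TPM, and 4 of the 31 were expressed. The activin receptor genes through which myostatin signals, Acvr2a and Acvr2b, were expressed at 15.7 ± 3.13 TPM and 4.72 ± 2.88 TPM.

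Ligands of axon and synapse growth were led by Nrn1, the GPI-anchored protein neuritin, at 111, 195, 244 and 157 TPM, and Nptx1, a pentraxin that clusters AMPA receptors, at 109, 114, 209 and 157 TPM. Both were highest in c and lowest in a. Efna5, an ephrin of topographic maps, was at 175, 168, 119.6 and 176 TPM, lowest in c, and 6 of 8 ephrins were expressed. Sema6a, a membrane semaphorin that acts in retinal layering, was at 98.1 ± 21.5 TPM, and 11 of 13 membrane semaphorins were expressed against 3 of 7 of the secreted class. Slit1 and Slit2, repellents of ganglion cell axons, were at 8.37 ± 2.94 TPM and 4.23 ± 1.86 TPM, and Ntng1, a membrane-bound netrin, at 59.3 ± 13.4 TPM. Bdnf was at 16.8 ± 4.43 TPM, and Vegfb at 121 ± 29.1 TPM. Of WNT genes 3 of 19 were expressed, none above 8.30 TPM (Wnt3). Dkk3 (122 ± 21.7 TPM) and Sparcl1 (119.6, 81.1, 174 and 120.1 TPM) are also known from glia, and Dkk3 is in the Müller list above.

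**Figure D5:**
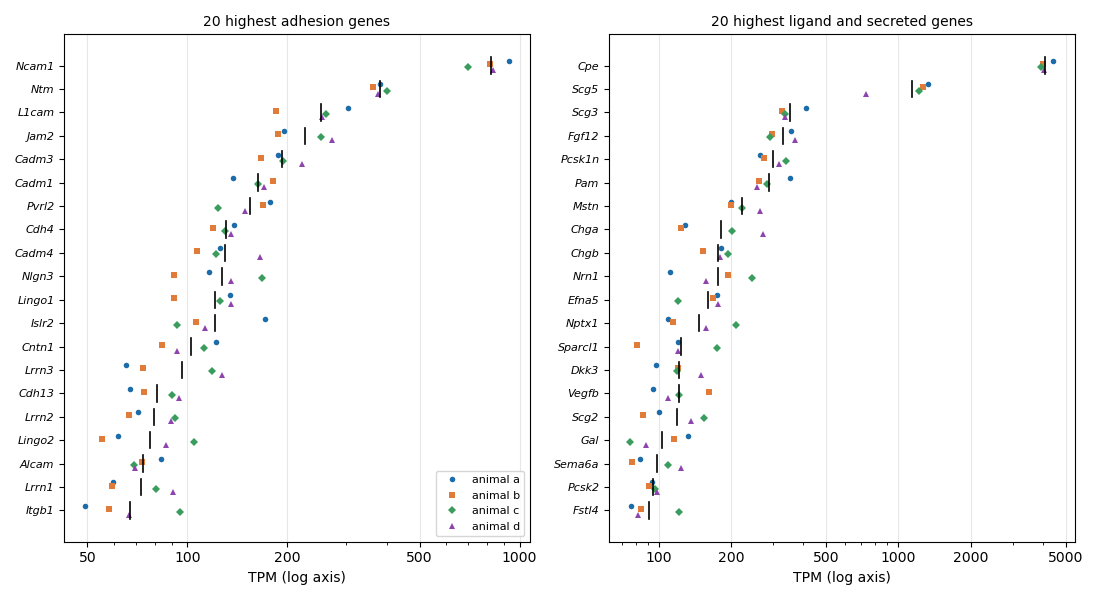
TPM (log axis) of the 20 highest adhesion genes (left) and the 20 highest ligand and secreted genes (right) in control J-RGCs; points are the 4 animals and vertical bars are means. Ncam1 and Ntm lead the adhesion genes, Jam2 comes after these and L1cam by mean, and Cpe lies above every other secreted gene in each animal.

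Of 174 genes in the axon and vesicle category 126 (72.4%) were expressed, against 45.6% of all genes and 52.4% of protein-coding genes. The category summed to 106925 ± 6080.4 TPM, mostly from the stathmin, MAP and growth cone family (37137 ± 2503 TPM) and tubulins (30802 ± 4357 TPM). Of neurotransmitter transport and synthesis genes 20 of 38 (52.6%) were expressed, summing to 1299.7 ± 167 TPM. Of vesicle release genes 42 of 50 (84%) were expressed, summing to 17218 ± 627 TPM. Snap25, a core protein of vesicle fusion, and Rab3a, a vesicle GTPase, were among the highest. Rab3a was nearly constant, at 1245, 1262, 1223 and 1278 CPM. Vamp2 (599 ± 116 TPM) and Syn1 (545 ± 77.8 TPM) followed, and of the synaptotagmin calcium sensors Syt4 (684 ± 55.7 TPM) and Syt5 (382 ± 64.7 TPM) lay above Syt1 (256 ± 53.7 TPM).

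For glutamate, Slc17a6 was the vesicular transporter expressed, and Slc17a7 was at 0.0403, 0, 0 and 1.64 CPM. Transporters for other transmitters were also found. Slc6a4, the serotonin uptake transporter known from some developing ganglion cells, was at 237, 232, 152 and 173 CPM, and Slc18a2, the vesicular monoamine transporter, at 87.3 ± 17.4 TPM. Tph2, the neuronal enzyme of serotonin synthesis, was at 18.9, 0, 2.28 and 2.63 CPM. Slc12a5, which exports chloride in maturing neurons, was at 26.9 ± 3.82 TPM, and Slc12a2, which imports it, at 2.95 ± 2.64 TPM, with a ratio of 3.97 in a and 14.2 to 20.7 in the other animals. Calcium-binding genes beyond calmodulin and Calb2 included Hpca (728 ± 91.2 TPM), S100a10 (549 ± 97.1 TPM) and Necab2 (318 ± 33 TPM), while Calb1, the calbindin gene, was at 9.23 ± 4.14 TPM.

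The order of neighbouring genes within a family was firm for some pairs and not for others. Over 299 pairs of neighbours within families, each taken at the mean TPM, the first gene was above the second in all 4 animals for 175 and not for the other 124. No p is given for single pairs, because an exact two-sided sign permutation over 4 animals cannot give a p below 1 in 8. The length used mattered too: 9 of the 299 pairs turned round in every animal with the longest transcript, and 39 did with CPM, which has no length term.

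Levels of most genes were close between animals. Among 7905 genes at a mean of 16 CPM or more, the median SD of log2 CPM (with 1 added) was 0.285 between animals. The 95th percentile was 0.682. Between the 2 pools of animal b the median SD was 0.259. The pool SD rests on 2 values and the animal SD on 4, and the median of the former falls further below the true spread. These 2 medians therefore do not show which spread is wider. Among the 10 narrowest genes were Mapre3, a microtubule plus-end protein, at 209, 205, 209 and 207 CPM, Atat1, which acetylates tubulin, at 481, 488, 481 and 495 CPM, the prohormone convertase gene Pcsk2 at 169, 169.5, 173 and 176 CPM, and Rab3a at 1245, 1262, 1223 and 1278 CPM. The widest was Xist, the RNA that silences an X chromosome, at 347, 269.5, 3.11 and 291 CPM, with Eif2s3y, a Y-linked gene, at 0, 0.0757, 81.5 and 0.348 CPM. The low Xist and the Eif2s3y signal fell in the same animal, c. Klhl25, a ubiquitin ligase adaptor, was at 0, 32.4, 25 and 27.2 CPM, and Insr, the insulin receptor gene, at 0.524, 21.6, 29.6 and 25.4 CPM, both near or at 0 in a. Zrsr1, an imprinted splicing gene, was at 47.2, 66.8, 3.54 and 0.791 CPM, with a and b high and c and d low, and Rec8, a cohesin subunit, at 6.04, 64.1, 6.48 and 60.2 CPM, high in b and d.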

How the data were processed

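RNA of sorted J-RGC pools was sequenced from a single end after Smart-seq2 amplification and Nextera XT library preparation, per the labels' protocols. The authors deposited 1 file of whole-number counts, by gene symbol, for each library. Trimmomatic 0.32, TopHat2 2.0.10, HTSeq 0.6.1 and the mm10 (GRCm38) build are named in the submitters' processing notes, while their roles, the annotation counted over and the handling of strand were not given in the sources used here. Since this kit leaves strand unmarked, genes that overlap on opposite strands cannot be told apart, and amplified duplicates stay in the counts.

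Lines without a gene name did not enter the totals. They held, of the reads listed per library, 20.0% to 23.6% in no feature, 1.33% to 1.47% ambiguous and 13.6% to 14.6% aligned to several places. Libraries 2 and 3, tied to 1 animal by the series' design text, were summed. CPM used the total gene count, and TPM the union of exons of the GENCODE M21 basic set, which matched 24020 symbols (98.4%). The 401 others held 1.60% to 2.51% of the counts and have no TPM. With 1 group there is nothing to test, and all values are descriptions. The 5 libraries come from 4 animals, and the SD over animals holds animal and technical spread together. Promoter windows came from RefSeq on GRCm38.p6. The TPM calculation was tested on simulated counts drawn from known levels.

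The 94 gene families, taken by symbol pattern in 6 categories, and the 13 marker lists were chosen with earlier results of these data known. Genes named are the 5 markers, the 25 highest, the 12 highest of each category, up to 3 of each family or list, and the 10 with the widest and narrowest spread. Others named were picked after their values were seen. Alternatives were other thresholds, TMM library sizes (edgeR 4.0.16), size factors of DESeq2 1.42.0, libraries kept apart, another gene length and leaving out each animal. Plots were drawn with matplotlib 3.10.9. The 6 KO libraries are not used here, and values of some genes that this rule names are not reported here.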

Additional observations from a re-analysis of the deposited data

Results flagged for a closer look

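The 342 values examined were the CPM of named genes and the summed TPM of marker lists over 4 animals. Of these, 24 (7.02%) had 1 animal far from the other 3. Chance alone gives about 1 in 20 where values follow a normal distribution. Genes with almost no reads in 3 animals, listed last, break this condition, since any small signal in the remaining animal then stands far apart. Such genes are among the 24, so the share of 7.02% cannot be compared with 1 in 20. Animal a was the distant one in 10 of the 24, c in 7, d in 5 and b in 2. In animal a, Clcn6 (106 CPM against 57.2 to 64.5), Neo1 (76.4 CPM against 49.1 to 49.9), Robo2 (139 CPM against 103 to 109), Scg3 (375 CPM against 304 to 307), Sema3f (8.26 CPM against 2.18 to 2.98) and Sox12 (48.0 CPM against 11.6 to 16.9) were high. Neo1 and Robo2 encode receptors of axon guidance, and Sox12 a SOXC factor. In the same animal Grik4 (18.2 CPM against 29.4 to 31.7) and Rxrg (110.3 CPM against 156 to 163) were low.

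In animal b, Sncg (2456 CPM against 1771 to 1881) was high and Foxp4 (45.3 CPM against 67.1 to 68.3) was low. In animal c, Chrna4 (165 CPM against 97.3 to 103) and Cxadr (143 CPM against 109 to 113) were high and Efna5 (184 CPM against 269) was low, the last an ephrin. In animal d, Fam19a4 (66.1 CPM against 49.5 to 49.9) and Nr2e3 (55.9 CPM against 9.10 to 11.4) were high, and Kit (26.1 CPM against 48.5 to 51.4) was low. The photoreceptor marker list was also high in d, at a summed 634 TPM against 145 to 226, and Nr2e3 is one of its members.

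The other values came from genes at or near 0 in 3 animals: Chrm1 in a (0.0403 CPM against 0), Chrm4 in a (3.18 CPM against 0 to 0.404), Eif2s3y in c (81.5 CPM against 0 to 0.348), Gfap in c (6.77 CPM against 0), Kirrel2 in c (0.490 CPM against 0), Sstr4 in c (1.96 CPM against 0 to 0.0252) and Tfap2d in d (2.81 CPM against 0 to 0.0403). In animal c, which had the Eif2s3y signal, Xist was lowest. For Chrm1 and Kirrel2 the high value stayed under 1 CPM. The causes were not tested.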

How the results depend on the processing

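Counts of expressed genes and members, the number of firm pairs and the median spread stayed within 1.5 times of the values reported in all 21 settings with another threshold, library size, length or offset. Marker list sums and the share of the 100 highest genes were held to 1 SD between animals instead, and 11 of 15 such settings moved past it, 10 of them by leaving out a list's highest marker. By construction, leaving out 1 of 4 animals moves a mean by under 1 SD and never lowers a count of genes or pairs that hold in every animal, and the ranges are given for their size alone: 11251 to 11712 expressed genes, 21.7% to 22.4% of counts in the 100 highest genes and 187 to 212 firm pairs of 299. Per length, the 100 highest genes held 23.2% in place of 22.2%. Without its highest marker, a list summed to 809 TPM for the sorted type (without Rbpms), 27566 for pan ganglion cells, 352 for other ganglion cell types (without Calb2), 49.8 for bipolar cells (without Isl1), 139 for amacrine cells, 144 for horizontal cells (without Tpm3), 406 for Müller glia and progenitors, 6.85 for vascular cells, 3.85 for pigment epithelium and 0 for red blood cells. Means of 4 lists moved by over 1.5 times with 1 animal left out: photoreceptors to 183 TPM and red blood cells to 1.66 without d, microglia to 74.1 without a and astrocytes to 2.01 without c. CPM of 86 genes compared kept within 1 SD under TMM, DESeq2 size factors and separate libraries, while TPM on the longest transcript moved by over 1 SD for 25 of them. Among 329 named genes it moved by over 1.5 times for 11, most for Snap25. Depth limits genes near 0.0757 to 0.121 CPM in an animal. No paired analysis was possible because the control animals form 1 group and no test was made.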
